A study of Homo sapiens with 6 samples.

Results

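The SERPINB cluster on chromosome 18 holds the clade B serpins SERPINB2, SERPINB3, SERPINB4, SERPINB5, SERPINB7, SERPINB8, SERPINB10, SERPINB11, SERPINB12 and SERPINB13. These 10 genes were taken from the arrays by gene name, and all 12 of their probes were used, out of 25940 gene names and 34127 probes. They were measured in a pair of human breast cancer cell lines derived from xenograft tumors of T47Dco, a subline of the luminal line T47D that the labels name as parental, pure Luminal (pLUM) and pure Luminobasal (pLB). pLUM is a CLD3+CD49f- line that came from a tumor grown with estradiol (E), and the hybridized pLUM cells had been given 1 nM E for 72 h. pLB is a CLD3-CD49f+ line that came from a tumor grown with E plus progesterone, and was kept estrogen withdrawn (EWD). RNA of 3 sorts of each line was labelled with Cy3 and hybridized to 1 Agilent array per sort.

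Each line was derived from a single tumor, and line and hormone coincided on all 6 arrays, so that their contributions cannot be told apart. Cells were fixed, permeabilized and stained for CK5 before the sort, and whether the CK5+ or CK5- fraction went on the arrays is not given in the labels. Nothing says that the sorts came from separate cultures, so that p-values measure only the spread between these samples, which may be technical. Because RNA was taken from pools of cells, fewer cells that express a gene and less of its RNA per cell cannot be told apart.

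Serpins are protease inhibitors that trap their target by a change of shape, in which the protease cleaves an exposed loop and is locked to the inhibitor. Clade B serpins lack a classical secretion signal and reside mostly inside the cell, and many are made by stratified epithelia. SERPINB5 (maspin) is the member best known in the breast, where myoepithelial cells express it, and it does not act as a protease inhibitor. SERPINB3 and SERPINB4 are the squamous cell carcinoma antigens, which inhibit cysteine and chymotrypsin-like serine proteases, respectively.

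The probes of 4 members carried the signals that are described below, and are shown so that the measured stretch of each transcript can be seen. Whole probes are given for SERPINB4 and SERPINB8, and the first 30 of 60 bases for SERPINB5 and SERPINB3, all 5′ to 3′ and in lower case.
SERPINB5: catctcttccttgacctgcattgtaaatag
SERPINB4: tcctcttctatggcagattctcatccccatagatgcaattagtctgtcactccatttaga
SERPINB3: ctggcaacaacagattctcttggctcatat
SERPINB8: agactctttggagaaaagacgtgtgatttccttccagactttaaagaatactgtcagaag

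On hg19, these probes lie at chr18:61172218-61172277 on the plus strand (SERPINB5, NM_002639), chr18:61304925-61304984 on the minus strand (SERPINB4, NM_002974), chr18:61322767-61322826 on the minus strand (SERPINB3, NM_006919) and chr18:61647137-61648978 on the plus strand (SERPINB8, NM_001031848). All were designed within transcripts and therefore are exonic, and the 60 bases of the SERPINB8 probe are split over an intron. The transcripts that the array design lists for the SERPINB3 probe include those of both SERPINB3 and SERPINB4, whereas the SERPINB4 probe lists SERPINB4 only. The signal of the SERPINB3 probe can therefore not be assigned to SERPINB3 alone. Whether SERPINB3 RNA also binds the SERPINB4 probe was not tested.

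Within each line, Pearson's r across tested probes was at least 0.972, and between lines it was 0.780 to 0.806. Of the luminal markers, 6 of 7 were lower in pLB (all but KRT18), and of the luminobasal markers, 5 of 5 were higher. Further KRT8 probes disagreed, one being 3.71-fold higher in pLB and another 5.96-fold lower. These counts do not test the identity of the lines. The lines were sorted on the products of CLDN3 and ITGA6, and the cells were stained for CK5, the product of KRT5. The paper also lists all of these luminal and luminobasal markers with RNA folds between the lines. Of 6 myeloid markers, MPO was dim on all 6 arrays, CD68 rose in pLB (log2 difference 1.52, limma adjusted p = 0.000403), and CSF1R was too dim to test. PTPRC, CD14 and ITGAM were not called (log2 differences -0.47, 0.56 and 0.77), although a further PTPRC probe fell by 1.21. The remaining PTPRC probes were dim on all 6 arrays. The summed level of the myeloid markers, in multiples of the array's 75th percentile, was 0.22 to 0.35 in pLUM and 0.29 to 0.44 in pLB. Of 3 fibroblast markers, PDGFRB was dim throughout, COL1A1 was not called (log2 difference -0.56), COL1A2 was at least 11.5-fold higher in pLB (at least 2.26-fold with normexp background correction), and the sums were 0.72 to 0.95 and 0.76 to 1.09. Of 5 markers of cornified keratinocytes, IVL rose (log2 difference 1.98, limma adjusted p = 0.00105). FLG and KRT10 were not called (log2 differences -0.34 and 0.02). A further FLG probe was not called either (log2 difference 0.95), and another was dim on all arrays. LOR and KRT1 were dim on all pLUM arrays and well above background on 2 of 3 pLB arrays. The sums of the keratinocyte markers were 6.71 to 9.33 in pLUM and 6.02 to 10.9 in pLB. Sums were taken on a linear scale, so that the brightest gene weighs most. KRT10 made up most of the keratinocyte sums, with a mean log2 signal of 2.98 in pLUM, against -4.85 for IVL. COL1A1 was the largest part of the fibroblast sums on every array. These sums therefore do not show that dimmer markers, such as IVL and COL1A2, were unchanged. The part of such cells or programs in the results below was not tested.

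Of the 10 members, 4 (SERPINB5, SERPINB4, SERPINB3 and SERPINB8) had probes well above background on all 3 pLB arrays and higher there than in pLUM. Since the SERPINB3 probe lists SERPINB4 as well, its signal does not show that SERPINB3 itself was detected. SERPINB8 alone was also well above background in pLUM. The other 6 members gave next to no signal in either line. The 4 genes were called under a rule (fold of 2 or more, Benjamini-Hochberg p below 0.05) that 22.7% of the 17665 tested genes passed in the same direction, 23.0% in the other and 45.7% in either. Of the 4, 3 passed the filter for testing (a signal well above background on 3 or more of the 6 arrays) through pLB only, and could therefore be called in that direction alone. No signal overlapped between lines for these 4 probes, as was the case, with pLB higher, for 34.3% of tested probes, and for 68.2% in either direction. The genes were selected on family and position, with their pLB and pLUM signals on these arrays already known, so that these values are a description without a test.

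**Figure D1:**
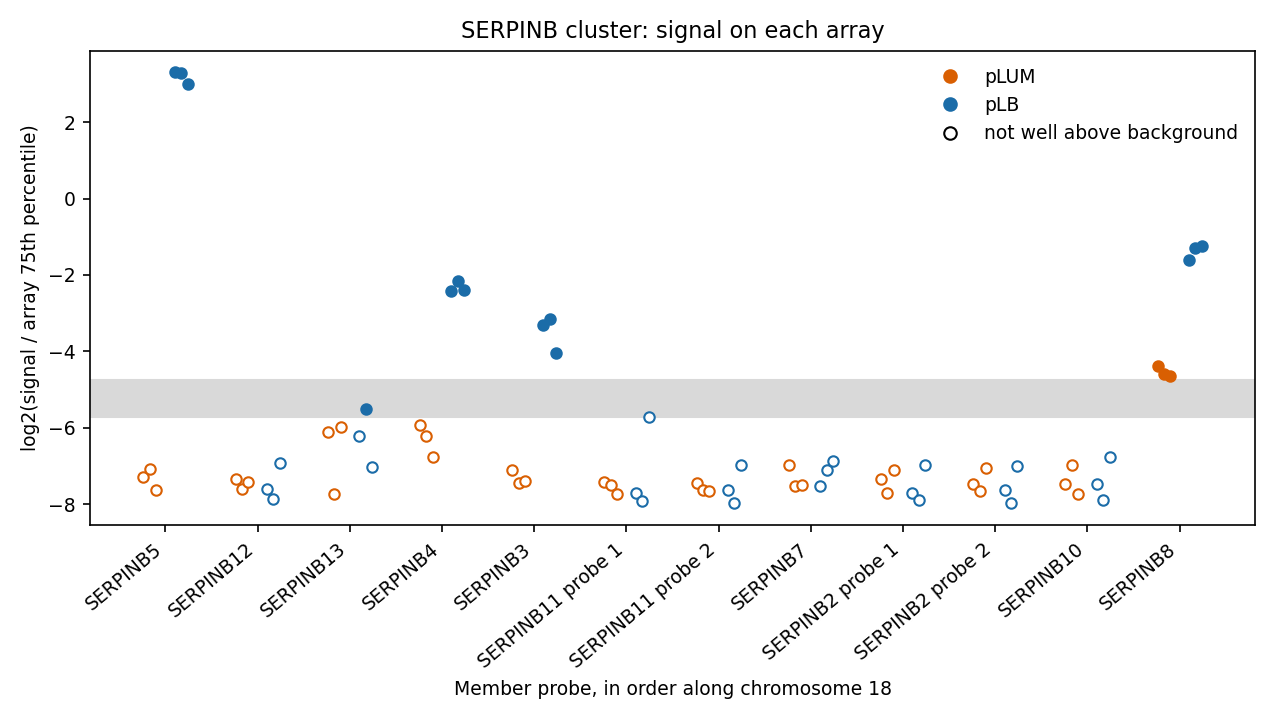
Signal of the 12 member probes on each array, as log2 of the signal over the array's 75th percentile, in the order of the probes along chromosome 18. Orange points are the 3 pLUM and blue points the 3 pLB arrays, open points were not well above background, and the grey band spans the lowest signal well above background on the 6 arrays, from -5.70 to -4.75. SERPINB5, SERPINB4, SERPINB3 and SERPINB8 have pLB points above the band, and SERPINB8 has pLUM points above it as well.

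SERPINB5 had raw intensities of 3.05, 4.18 and 2.85 on pLUM replicates 1, 2 and 3, none of which was well above background, and of 8610, 6808 and 3579 on pLB replicates 1, 2 and 3. After scaling to the 75th percentile, the log2 signals were -7.29, -7.07 and -7.63 in pLUM and 3.30, 3.29 and 2.99 in pLB. All pLB arrays were thus close to each other and far above the pLUM arrays. The means were -7.33 ± 0.29 (SD, n = 3) and 3.20 ± 0.18 (SD, n = 3), and the fitted log2 difference was 10.53 (SE 0.20). Because the pLUM values were at background, the difference has only a lower bound. This bound sets the pLB mean against the mean, over pLUM arrays, of the dim probe's signal or, where greater, the lowest signal called well above background on that array. Maspin RNA was at least 381-fold higher in pLB by this measure, and at least 55.7-fold with normexp background correction.

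The squamous cell carcinoma antigens were measured at lower signals. SERPINB4 gave intensities of 7.87, 7.53 and 5.19 on the pLUM arrays, all at background, and 163, 156 and 85.1 on the pLB arrays. On the log2 scale these were -5.92, -6.22 and -6.77 in pLUM and -2.42, -2.15 and -2.40 in pLB, with means of -6.30 ± 0.43 and -2.32 ± 0.15 (SD, n = 3 each). The lines did not overlap, and the pLB arrays differed little from each other. SERPINB4 was at least 8.30-fold higher in pLB, but this bound fell to 1.54-fold with normexp.

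The SERPINB3 probe gave 3.47, 3.23 and 3.34 in pLUM and 88.7, 78.5 and 27.4 in pLB. The log2 signals were -7.10, -7.44 and -7.40 in pLUM and -3.30, -3.15 and -4.04 in pLB, and the means were -7.31 ± 0.19 and -3.49 ± 0.48 (SD, n = 3 each). pLB replicate 3 was the lowest of the pLB arrays and lay nearest to background, the lowest intensity called well above background on that array being 16.7. The increase was at least 3.69-fold, and at least 1.07-fold with normexp. With normexp, neither squamous cell carcinoma antigen was called. The fitted log2 differences were 0.68 for SERPINB4 and 0.31 for SERPINB3, against 3.98 and 3.82 without it. The normexp setting adds an offset of 50 to every signal, which compresses folds between signals as low as these. How far the offset alone lowered these differences was not tested.

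SERPINB8, an intracellular inhibitor that blocks the proprotein convertase furin, was detected in both lines. Its intensities were 22.6, 23.1 and 22.5 in pLUM and 286, 281 and 192 in pLB. The log2 signals were -4.39, -4.60 and -4.65 in pLUM and -1.61, -1.30 and -1.23 in pLB, with means of -4.55 ± 0.14 and -1.38 ± 0.20 (SD, n = 3 each). Every pLB array was above every pLUM array, and the fold was 8.98 (log2 difference 3.17, SE 0.18). Although all 6 values were above background, the pLUM intensities were close to the lowest intensities called so, which were 12.4 to 13.0 on the pLUM arrays. With normexp the log2 difference was 1.31.

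The pLB replicates varied by different amounts from member to member. The SD of SERPINB3 between pLB arrays exceeded that of 75.4% of tested probes, whereas 22.0% of probes had a smaller SD than SERPINB4, 28.3% a smaller one than SERPINB5 and 33.9% a smaller one than SERPINB8. Slide 1 held all pLUM arrays together with pLB replicate 1, and the other 2 pLB arrays were on slide 2. Within slide 1, where a single pLB array was set against 3 pLUM arrays, the log2 difference was 10.63 for SERPINB5, 3.89 for SERPINB4, 4.02 for SERPINB3 and 2.94 for SERPINB8. Between slides, the pLB signals differed by -0.29 (SERPINB3) to 0.34 (SERPINB8) on the log2 scale.

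**Figure D2:**
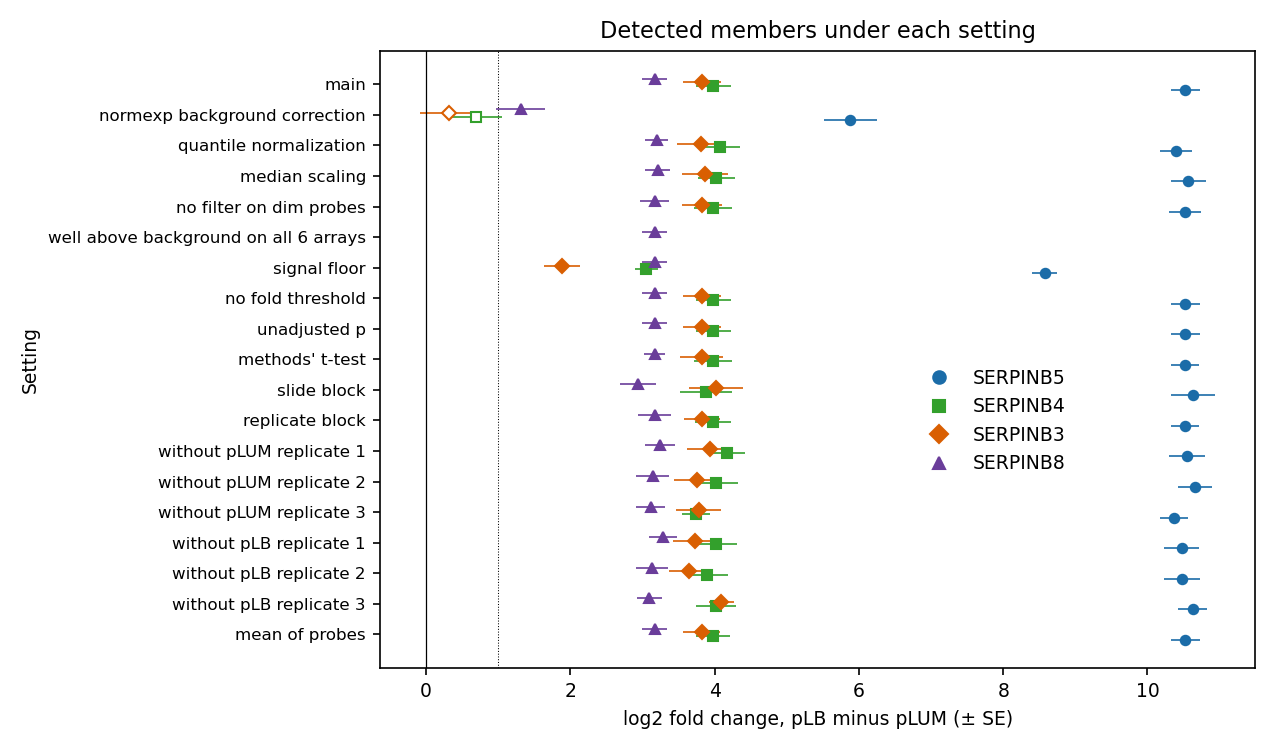
Log2 fold change (pLB minus pLUM, ± standard error) of the 4 detected members under each processing setting. Filled symbols were called, open symbols were not, and a missing symbol was not tested. SERPINB5 stays apart from the other members under every setting in which it was tested, and all differences are smallest with normexp, where SERPINB3 and SERPINB4 fall to 0.31 and 0.68.

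The other 6 members were SERPINB2 (an inhibitor of urokinase), SERPINB7 (megsin), SERPINB10 (bomapin, known from myeloid cells), SERPINB11, SERPINB12 and SERPINB13 (headpin, known from keratinocytes). Their 8 probes gave raw intensities of 2.63 to 15.2 on the 6 arrays, and 1 of 48 measurements was well above background. That measurement was SERPINB13 on pLB replicate 2, at 15.2, where the lowest intensity called well above background was 13.3. The other SERPINB13 intensities were 6.91, 2.63 and 9.02 in pLUM and 11.8 and 3.47 on pLB replicates 1 and 3, and the lines overlapped.

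Among these probes, SERPINB2 stood at 2.92, 2.69 and 4.11 in pLUM and 4.22, 2.95 and 3.60 in pLB with one probe, and its other probe ranged from 2.71 to 4.39. SERPINB7 ranged from 3.04 to 5.04, SERPINB10 from 2.66 to 4.88, SERPINB12 from 2.90 to 4.54, and the pair of SERPINB11 probes from 2.69 to 8.58. The highest of these was pLB replicate 3 of SERPINB11, which was not well above background. The signals of pLUM and pLB overlapped for all 8 probes, and since neither line was well above background on more than 1 array, no fold is given. Of all probes on the array, 25.0% were well above background on no array. A further 2.8% were so on the 3 pLB arrays and on no pLUM array, the pattern shown by the probes of SERPINB5, SERPINB4 and SERPINB3.

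Along the chromosome, the member probes span 477 kb of hg19 (chr18:61172218-61648978). They run from SERPINB5 through SERPINB12, SERPINB13, SERPINB4, SERPINB3, SERPINB11, SERPINB7, SERPINB2 and SERPINB10 to SERPINB8. The genes extend beyond this interval, as the SERPINB5 probe starts at base 2532 of its transcript. SERPINB5 and SERPINB8 thus stood at the ends of the interval, while SERPINB4 and SERPINB3 were neighbours inside it, separated by 17.8 kb between probes. Genes without signal lay between each of these detected positions. HMSD, which encodes a minor histocompatibility antigen, was the only other gene with a probe between the outermost member probes. It was also below background on all arrays.

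The windows of 250 bases upstream of the RefSeq start sites (GRCh38.p14) were compared. SERPINB3 and SERPINB4 prompted this, as they lie side by side and their probes gave signal in the same line. Windows were matched for 8 of the 10 members, SERPINB10 and SERPINB11 being the exceptions. In the SERPINB3 window (chr18:63661894-63662143, minus strand) and the SERPINB4 window (chr18:63644257-63644506, minus strand), the differing bases are in capitals.
SERPINB3: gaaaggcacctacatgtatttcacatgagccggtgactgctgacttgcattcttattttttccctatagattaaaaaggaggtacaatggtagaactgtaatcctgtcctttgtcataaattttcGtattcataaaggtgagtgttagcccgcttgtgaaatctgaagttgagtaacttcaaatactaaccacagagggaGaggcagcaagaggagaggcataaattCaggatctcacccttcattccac
SERPINB4: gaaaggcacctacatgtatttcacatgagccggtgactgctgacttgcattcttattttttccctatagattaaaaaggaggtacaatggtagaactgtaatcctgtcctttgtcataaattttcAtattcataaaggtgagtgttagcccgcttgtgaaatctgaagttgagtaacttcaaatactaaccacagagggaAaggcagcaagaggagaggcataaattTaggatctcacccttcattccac

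These windows were identical at 247 of 250 positions (98.8%) when compared base by base. The differences were G126A, G201A and C228T, with the SERPINB3 base first, the position counted from 1 at the 5′ end, and the SERPINB4 base last. The highest identity among the other 27 pairs of members was 33.6%, between SERPINB13 and SERPINB7.

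The windows of SERPINB5 (chr18:63476708-63476957, plus strand) and SERPINB8 (chr18:63969831-63970080, plus strand) are shown with each match to the AP-1 motif, TGANTCA, in capitals. AP-1 is the dimer of JUN and FOS family proteins.
SERPINB5: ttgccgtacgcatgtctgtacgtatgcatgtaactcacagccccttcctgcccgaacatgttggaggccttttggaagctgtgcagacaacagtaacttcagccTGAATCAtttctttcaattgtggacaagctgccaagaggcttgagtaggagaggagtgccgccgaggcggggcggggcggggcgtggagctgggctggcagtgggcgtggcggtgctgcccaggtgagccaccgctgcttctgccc
SERPINB8: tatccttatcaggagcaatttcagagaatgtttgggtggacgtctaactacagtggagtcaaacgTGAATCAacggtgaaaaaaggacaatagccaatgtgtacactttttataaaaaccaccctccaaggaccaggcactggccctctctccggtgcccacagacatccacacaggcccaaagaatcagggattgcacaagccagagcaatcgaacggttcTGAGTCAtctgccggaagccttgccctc

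The 8 matched members had 11 windows, since some have several start sites. The motif TGANTCA was present, on either strand, in 7 of the 11 windows, which belong to 6 members (SERPINB2, SERPINB5, SERPINB7, SERPINB8, SERPINB12 and SERPINB13), and in 6.57% of all 35116 RefSeq windows of this length. Of these 6 members, SERPINB5 and SERPINB8 were detected and the other 4 were not, and neither squamous cell carcinoma antigen had a match. TATAAA was found in 4 of the 11 windows (10.7% of all windows), of SERPINB2, SERPINB7, SERPINB8 and SERPINB12. The STAT motif TTCNNNGAA was found in 3 (6.57%), of SERPINB7, SERPINB8 and SERPINB12. Only the SERPINB8 window held both, since those of SERPINB7 and SERPINB12 belong to different start sites. The ETS motif CCGGAAG was found in 1 window, of SERPINB8 (8.52% of all windows), and the GATA motif AGATAA in 1, of SERPINB12 (9.17%). Both strands were searched for each of these motifs, the only overlap being that of TATAAA on the opposite strands of SERPINB8. The SERPINB5 window had a GC content of 60%, against 26% to 52% for the other members and a median of 58% for all windows. A match in these windows is a description of the letters and does not show binding.

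Genes that flank the cluster were then examined, to show whether the higher signals in pLB extended beyond the members. Of the 10 nearest tested genes on each side, 8 were higher in pLB (40%, against 22.7% of all tested genes). Another 4 were lower (20%, against 23.0%) and 8 were not called. Their median log2 fold change was 0.55, against 0.03 for all tested genes. Of these 20 genes, 2 passed the filter for testing through pLB only and 1 through pLUM only. Each of these could be called in that direction alone. On the side of SERPINB5, the nearest tested gene was VPS4B, an ATPase of endosomal sorting, 115 kb away between probes. Its mean log2 signal was 0.85 in pLUM and 0.94 in pLB, and it did not pass the test (log2 difference 0.09, SE 0.22, limma adjusted p = 0.744).

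KDSR, a reductase of sphingolipid synthesis that lies 173 kb from SERPINB5, was 11.2-fold higher in pLB (log2 difference 3.48, SE 0.17, limma adjusted p = 3.92e-06). A further KDSR probe gave 2.76-fold. BCL2, the inhibitor of apoptosis, was at background in pLUM and at least 2.90-fold higher in pLB by one probe (limma adjusted p = 0.000524), was not called with normexp (log2 difference 0.00), and was not well above background in either line by another probe.

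On the side of SERPINB8, the nearest tested gene was the cadherin CDH7, 1881 kb away, which did not pass the test (log2 difference 0.69, SE 0.73, limma adjusted p = 0.441). The cadherin CDH19 was 4.31-fold lower in pLB (limma adjusted p = 0.000593). DSEL, related to the epimerases of dermatan sulfate synthesis, was at least 11.5-fold higher in pLB (limma adjusted p = 5.94e-05), with a bound of 2.08-fold and no call under normexp. Named genes nearer to SERPINB8, LINC00305, LOC400654 and LOC284294, were too dim to test, and the 10 genes on this side reached 10272 kb away. On the side of SERPINB5, a tested probe without a gene name lay between the VPS4B and SERPINB5 probes and was called higher in pLB. It may lie inside SERPINB5.

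**Figure D3:**
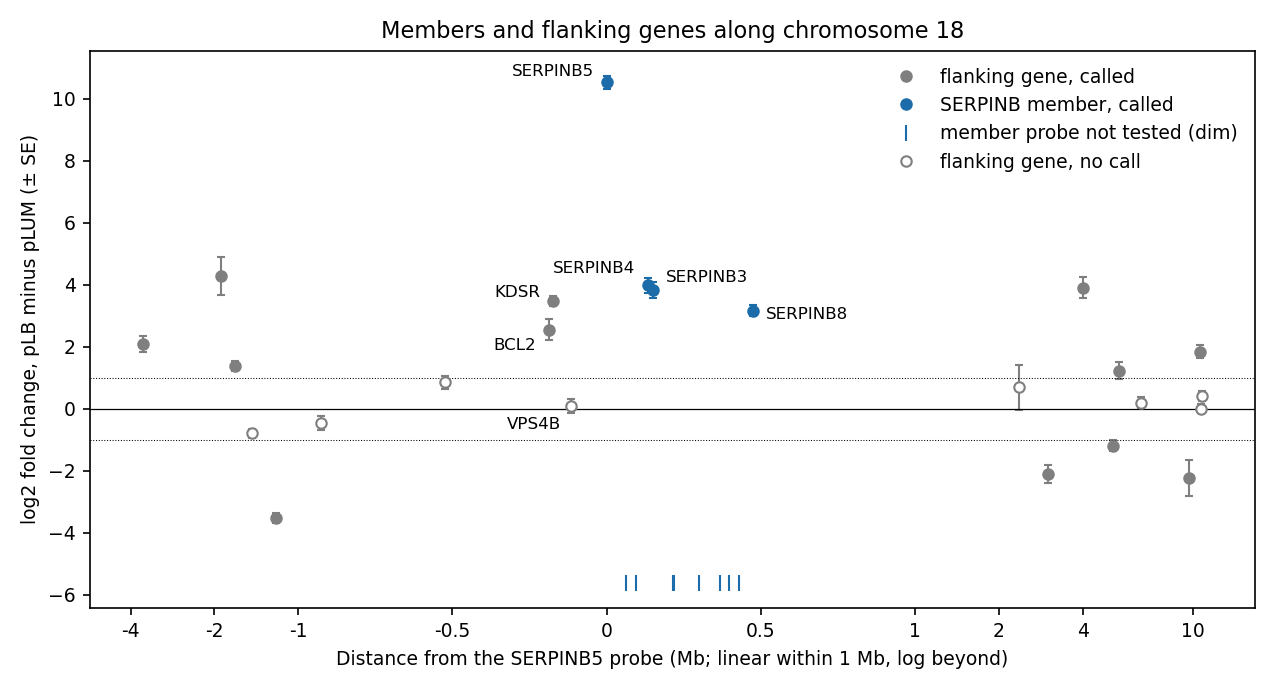
Log2 fold change (pLB minus pLUM, ± standard error) of members and flanking genes against distance from the SERPINB5 probe in Mb, with a scale that is linear within 1 Mb and logarithmic beyond. Blue points are the 4 tested members, blue ticks the 8 member probes that were too dim to test, filled grey points flanking genes that were called and open grey points those that were not, and dotted lines mark 2-fold. VPS4B lies at 0.09, next to SERPINB5 at a fitted 10.53, a difference that has only a lower bound.

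The remaining clade B serpins are encoded on chromosome 6. SERPINB1, which inhibits neutrophil elastase, had a mean log2 signal of -1.49 in pLUM and was dim on all pLB arrays. It was thus at least 14.0-fold lower in pLB (limma adjusted p = 8.91e-06), or at least 4.07-fold lower with normexp. SERPINB6, an inhibitor of trypsin-like proteases and cathepsin G, fell from 2.13 to 0.44 on the log2 scale (log2 difference -1.69, SE 0.18, limma adjusted p = 0.000168), and a further probe gave -1.34. SERPINB9, the granzyme B inhibitor, was at background in both lines. Of these genes, SERPINB6 alone was well above background on all 6 arrays. SERPINB1 passed the filter for testing through pLUM only, and could only be called lower.

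Of the 23 serpins of other clades on the array, 15 were too dim to test. Of the 8 tested, 5 were higher in pLB (62.5%, against 22.7% of all tested genes) and 3 were lower (37.5%, against 23.0%). Their median log2 fold change was 1.66, or 1.52 with the 2 genes that were dim in pLUM set at their bounds. These 2 genes passed the filter for testing through pLB only, and could only be called higher. SERPINE2 (protease nexin) was at least 71.8-fold higher (limma adjusted p = 3.94e-07), and at least 11.3-fold with normexp.

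SERPINH1, the collagen chaperone HSP47, rose by 2.95 on the log2 scale from a level of 2.84 in pLUM (limma adjusted p = 4.66e-06). SERPING1, the C1 inhibitor, was 4.00-fold higher (limma adjusted p = 0.000238), was not called with normexp (log2 difference 0.53), and had 3 further probes. Of these, one gave 13.4-fold (limma adjusted p = 2.66e-05), one was at background in pLUM and at least 4.18-fold higher in pLB (limma adjusted p = 1.97e-05), or at least 1.19-fold with normexp, and one did not differ beyond its error (log2 difference -0.13, limma adjusted p = 0.773). The 3 serpins that fell were SERPINA6 (corticosteroid-binding globulin), 29.3-fold, SERPINA1 (alpha-1-antitrypsin), 14.0-fold, and SERPINA3 (alpha-1-antichymotrypsin), 5.28-fold. Their limma adjusted p was 1.21e-06, 2.75e-06 and 2.37e-05, respectively.

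Proteases that members are known to inhibit in vitro were listed to set the inhibitors beside their targets. Of 12 proteases, 7 were tested. In pLB, 5 of these were higher (71.4%, against 22.7% of all tested genes), CTSK was lower (14.3%, against 23.0%) and CMA1 was not called. The median log2 fold change was 3.65, which is the fitted value of FURIN, a gene at background in pLUM, and so is not an exact fold. With the 2 genes that were dim in pLUM set at their bounds, the median was 3.23. These 2 genes, PLAT and FURIN, passed the filter for testing through pLB only, and could only be called higher. PLAU (urokinase), a target of SERPINB2, had a mean log2 signal of -3.04 in pLUM and 4.82 in pLB (log2 difference 7.87, SE 0.20, limma adjusted p = 3.94e-07). PLAT (tissue plasminogen activator) was at background in pLUM and at least 272-fold higher in pLB (limma adjusted p = 1.46e-07), or at least 41.3-fold with normexp. SERPINB2 itself was at background in both lines, as shown above.

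Of the papain-like cathepsins, which SERPINB3 and SERPINB13 inhibit, CTSL2 (now CTSV) was 22.4-fold higher in pLB and CTSK was 4.56-fold lower (limma adjusted p = 3.87e-06 and 0.000193). The probes for CTSL1 (now CTSL) disagreed, one giving a log2 fold change of 3.23 (limma adjusted p = 3.54e-05) and the other one of -1.36 (limma adjusted p = 0.0356). FURIN, the target of SERPINB8, was at background in pLUM and at least 3.05-fold higher in pLB (limma adjusted p = 2.11e-05), but was not called with normexp (log2 difference 0.21). CMA1, the mast cell chymase, had a log2 fold change of 0.17 (limma adjusted p = 0.672). PLG, F2, CTSS, CTSG and PRSS1 were not well above background on any array.

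Transcription factors that are known to act on the promoters of members were measured as well. Of 9 factors, 8 were tested. Of these, 2 were higher in pLB (25%, close to the 22.7% of all tested genes) and 6 were not called, with a median log2 fold change of 0.74. TP63, a transcription factor of basal epithelial cells, was at background in pLUM and at least 32.2-fold higher in pLB (limma adjusted p = 0.000112), or at least 5.59-fold with normexp. It passed the filter for testing through pLB only, and could only be called higher. FOSL1, an AP-1 subunit, was 4.51-fold higher (log2 difference 2.17, SE 0.18, limma adjusted p = 4.37e-05).

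The other AP-1 subunits on the list were not called, JUN having a log2 fold change of -0.43 (limma adjusted p = 0.0538) and FOS one of 0.64 (limma adjusted p = 0.0176). NFKB1 had a log2 fold change of 0.94, below the 2-fold threshold, which it passed without pLUM replicate 3 (1.07), without pLB replicate 3 (1.14) and with slide as a block (1.19). For STAT3 and RELA it was 0.84 and 0.38, respectively. ETS1 was not well above background in either line.

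**Figure D4:**
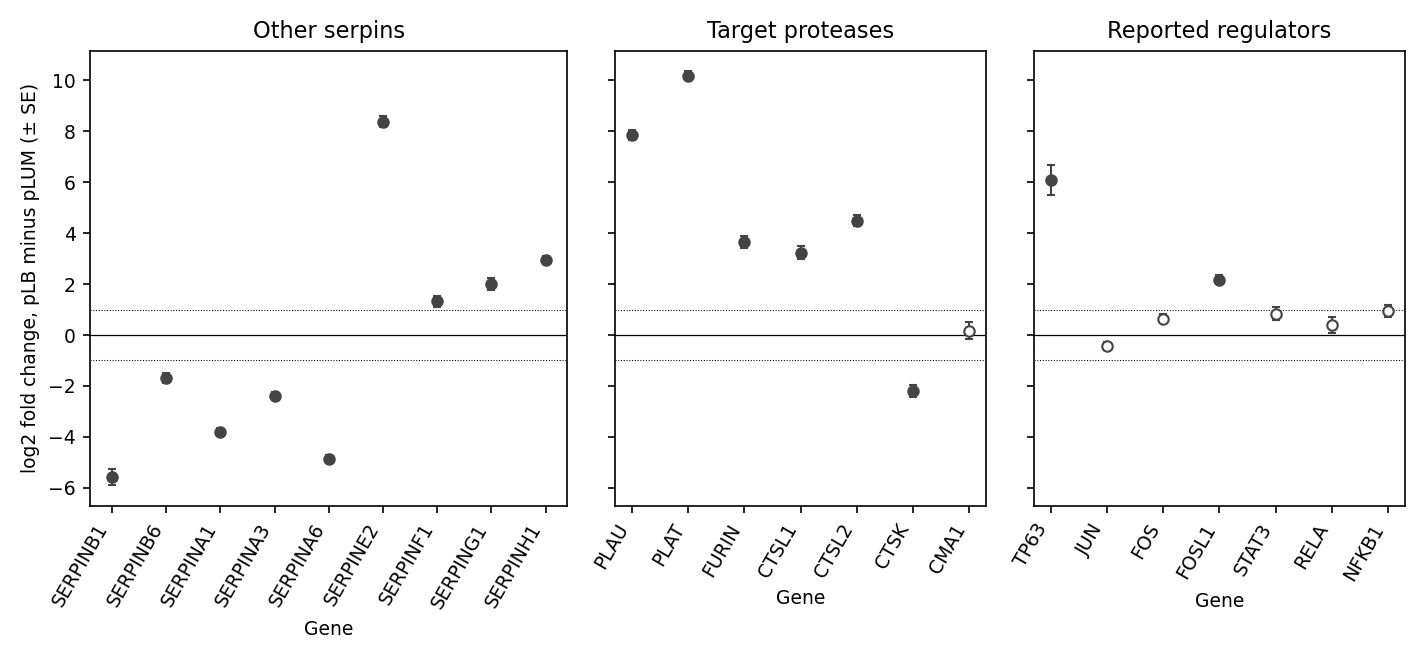
Log2 fold change (pLB minus pLUM, ± standard error) of tested serpins outside the cluster, tested target proteases and tested regulators. Filled points were called at 2-fold, which the dotted lines mark, and an adjusted p under 0.05, and open points were not. Serpins outside the cluster lie on both sides of 0, from a fitted -5.58 for SERPINB1 to a fitted 8.38 for SERPINE2. SERPINB1 was dim in pLB and SERPINE2 in pLUM, so that these changes have only lower bounds (14.0-fold lower and 71.8-fold higher).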

How the data were processed

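RNA of 3 pLUM and 3 pLB sorts was measured. The authors deposited the intensity of every spot on a linear scale, from Agilent Feature Extraction 10.10.1.1, corrected for background within an array but not normalized between arrays. Gene names, transcripts and hg19 positions are those of the files, and RefSeq (GRCh38.p14) matched 100 of 103 names used, 6 of which it renames. Replicates were not pooled. Control and outlier spots (296 to 387 per array) were left out, spots of a probe were averaged, and intensities were divided by the array's 75th percentile (450 to 873) and expressed as log2. The number of arrays limits the precision, and no gene spot was saturated. A probe was well above background if more than 0.5 of its spots had that flag, which held for 21280 to 22772 probes per array.

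The 23097 probes (17665 genes) with that status on 3 or more of 6 arrays were compared between lines by lmFit and eBayes of limma 3.58.1 in R 4.3.3, with Benjamini-Hochberg adjustment over all tested probes. The fit was tested on simulated data. Of several probes of a gene, the one with the highest mean stood for it. Calls required 2-fold and an adjusted p under 0.05. The members and lists were chosen with earlier results of these data known. Named genes are all members, the 3 nearest tested genes on each side and HMSD, every gene of lists of up to 12, and the 4 called genes with the largest change in each direction of longer lists. Some listed genes are counted in their lists but are not reported here by name, and a promoter motif that was also searched is not reported here. Alternatives changed the background correction (normexp, offset 50), scaling, dim-probe filter, signal floor, threshold, test, probe rule, slide block, replicate block and left-out array. Replicate numbers were not used as pairs. Promoter windows were taken from RefSeq and compared base by base.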

Additional observations from a re-analysis of the deposited data

How the results depend on the processing

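Of the 4 members higher in pLB, 2 were called with normexp background correction (SERPINB5 and SERPINB8), and 1 (SERPINB8) was tested and called when probes had to be well above background on all 6 arrays. The fitted log2 differences over all alternatives were 5.88 to 10.66 for SERPINB5, 0.68 to 4.17 for SERPINB4, 0.31 to 4.09 for SERPINB3 and 1.31 to 3.28 for SERPINB8, and with 1 array left out they were 10.37 to 10.66, 3.74 to 4.17, 3.65 to 4.09 and 3.09 to 3.28. With normexp, the flanking genes called higher were 4 in place of 8 and the serpins of other clades 3 in place of 5. Of all 17665 tested genes, 2559 were then called higher in place of 4012, and their median moved from 0.03 to -0.21. With the filter on all 6 arrays, fewer genes (14722) were tested, of which 3036 were higher and 3027 lower. Those higher then included 5 flanking genes, 3 serpins of other clades, 3 proteases and 1 regulator. Those lower included 1 clade B serpin on chromosome 6. With no fold threshold, 5 regulators were higher in place of 2, and 5723 of all tested genes in place of 4012. With the mean of its probes, CTSL1 had a log2 fold change of 0.94 and was not called. No called value changed sign under any alternative, for the 4 tested members or the 45 other genes. Same-numbered samples did not deviate together (r -0.27, -0.10 and -0.22), and with the replicate block 4 members were still called, and 3965 genes were higher and 4010 lower in place of 4012 and 4068. Signals near background limit SERPINB3, SERPINB4 and the 6 members without signal.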

Other observations

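A probe without a gene name lies between the probes of VPS4B and SERPINB5 (chr18:61164087-61164146 of hg19, plus strand). The SERPINB5 probe is on the same strand and starts at base 2532 of its transcript. Part of SERPINB5 therefore lies on this side of its probe, and whether the nameless probe falls inside that gene was not determined. It was chosen after its values were seen. Its raw intensities were 5.29, 6.06 and 10.9 in pLUM, none well above background, and 187, 226 and 197 in pLB. The pLB arrays were close to each other and did not overlap with pLUM, and the probe was at least 13.0-fold higher in pLB, or at least 2.45-fold with normexp background correction. The transcript that it measures was not identified here.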
